A study of Mus musculus with 12 samples.

Results

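Mfsd2a, Ddah1, Hspb1, Bmf, Nudt7, Ntrk2, Slc17a2 and Fmo5 are 8 genes with a steep fall in liver RNA at day 16 of mouse pregnancy. They were chosen by this fall, that is by their log2 change between virgin and pregnant liver on these arrays, so their liver changes are given as a description, with no test. On the arrays they had 28 probe sets with a single gene symbol, of 45037 probe sets and 18193 genes in all. Lung and liver came from female NOD/SCID mice, an immunodeficient strain without mature T and B cells, aged 8 to 10 weeks when the experiments began. Mice were either virgin or pregnant for 16 days, timed by vaginal plug, and received no other treatment that the labels name. This gave 4 groups, lung and liver in each state, with 3 arrays in each, and every array measured pooled RNA of 2 mice. A value below is a log2 expression value, so a difference of 1 is a 2-fold difference, and values in a row are those of pools 1, 2 and 3. The p-values measure the spread between such pools, and the small number of arrays limits their precision.

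The 8 genes do different work. Mfsd2a carries lysophospholipids with polyunsaturated fatty acids across the plasma membrane, and in liver its RNA is known to rise on fasting. Ddah1 breaks down methylated arginines, which block nitric oxide synthase. Hspb1 (Hsp25 in mouse) is a small heat shock protein that holds unfolded proteins without using ATP. Bmf is a BH3-only protein, which promotes cell death by binding pro-survival BCL2 proteins. Nudt7 cleaves coenzyme A in peroxisomes, where fatty acids are shortened. Ntrk2 encodes TrkB, the receptor of the neurotrophins BDNF and NT-4, made as a full-length kinase and as forms without the kinase domain. Slc17a2 belongs to a family of transporters of phosphate and organic anions, and Fmo5 is a flavin-containing monooxygenase abundant in liver. In whole tissue, less RNA per cell and fewer cells that hold the RNA cannot be told apart.

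Ranked by the fall in pregnant against virgin liver among all 18193 genes, the 8 stood at ranks 2 (Bmf), 5 (Mfsd2a), 6 (Ddah1), 7 (Slc17a2), 10 (Hspb1), 13 (Nudt7), 20 (Ntrk2) and 49 (Fmo5). They are not all of the steepest fallers: 41 other genes lie among the first 49. Bmf, with the steepest fall of the 8 at -3.71, stood between Cyp4a14 at -3.91 and Abcc3 at -3.18. Its rank and size rest on 1 of its 3 probe sets, with pregnant values at which signal above background is not shown. The difference may thus be understated on that set, while the other sets of Bmf, dim in all groups, changed by -0.36 and 0.09 with overlapping pools. Fmo5, with the shallowest at -1.37, stood between Pmvk at -1.37 and Smim22 at -1.36, so the fall alone does not set the edge of the group. The median liver change of the 8 was -2.52, against -0.01 over all genes tested. For all 8 the pools of virgin and pregnant liver did not overlap, as was the case in this direction for 15.3% of all genes, and the choice of the genes fixes this count.

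**Figure D1:**
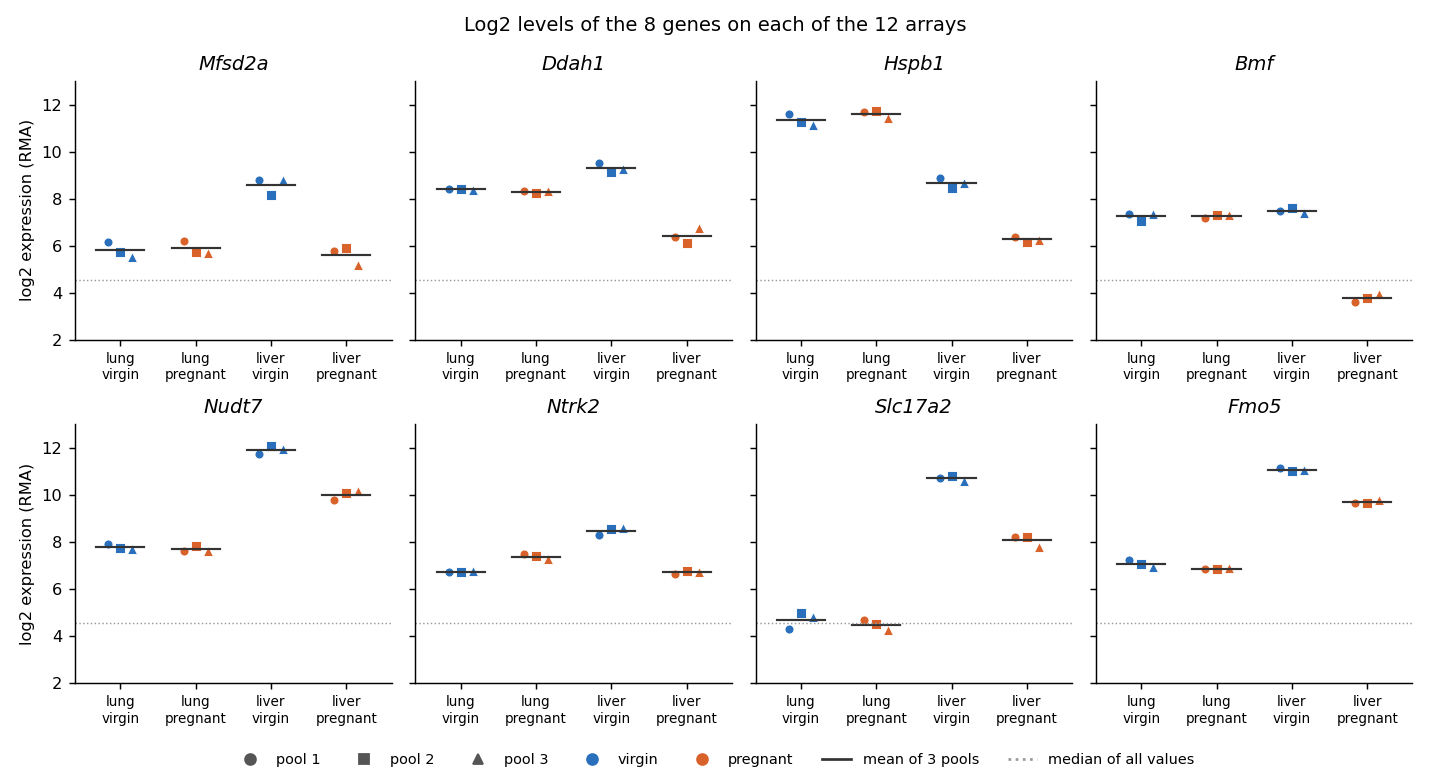
Log2 expression of the 8 genes (y axis) in lung and liver of virgin and pregnant mice (x axis), 1 point for each array with its pool shown by the symbol, bars for the mean of 3 pools and a dotted line at 4.53, the median of all values. In liver every pregnant point lies below every virgin point, and in lung the levels of the 2 states lie close together except for Ntrk2, which is higher in pregnancy.

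Mfsd2a had log2 values of 8.78, 8.16 and 8.79 in virgin liver and of 5.76, 5.88 and 5.16 in pregnant liver. Pool 2 was the lowest virgin pool and pool 3 the lowest pregnant pool, and the groups did not overlap. The means were 8.58 ± 0.36 and 5.60 ± 0.39 (SD, n = 3), a difference of -2.97, or 7.86-fold lower in pregnancy. In lung the values were 6.15, 5.73 and 5.50 in virgin and 6.21, 5.73 and 5.68 in pregnant mice, so the pools of the 2 states overlapped. The pregnant liver mean minus that of virgin lung was -0.19, whereas virgin liver lay 2.78 above virgin lung. A single probe set represents Mfsd2a. The promoter is shown because it holds AGGTCA, the half-site bound by many nuclear receptors, read on both strands and set in capitals. The printed bases end where the annotated gene begins (chr4:122961195-122961438, minus strand, GRCm38.p6, RefSeq).

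Mfsd2a promoter: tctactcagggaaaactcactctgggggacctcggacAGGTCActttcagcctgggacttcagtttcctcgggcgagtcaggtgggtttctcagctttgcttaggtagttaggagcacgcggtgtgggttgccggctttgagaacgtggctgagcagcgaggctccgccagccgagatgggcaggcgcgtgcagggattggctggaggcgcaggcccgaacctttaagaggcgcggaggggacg

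The half-site stood in the 250 bases before an annotated start of Mfsd2a and of Bmf, and in 14.0% of 32851 such windows of all genes. The direct repeat of 2 half-sites with 1 base between them was in none of the 11 windows of the 8 genes and in 0.0335% of all windows.

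Ddah1 had 5 probe sets, and on all 5 each pregnant liver pool lay below each virgin one. The set with the highest mean, which stands for the gene, read 9.50, 9.13 and 9.26 in virgin and 6.35, 6.11 and 6.73 in pregnant liver. The means of 9.29 ± 0.19 and 6.40 ± 0.32 (SD, n = 3) differ by -2.90, or 7.44-fold. The sets 1454995_at and 1429298_at both differed by -2.59, and the dimmer sets 1429299_at and 1434519_at by -1.37 and -1.0. Thus the sets ranged from 2.00-fold to 7.44-fold lower. Pool 2 gave the lowest virgin liver value on the 3 brighter sets (8.57 on 1429298_at and 7.59 on 1454995_at), but on neither dimmer set. Lung levels of the representative set were tight, at 8.41, 8.42 and 8.35 in virgin and 8.33, 8.23 and 8.30 in pregnant mice. Pregnant liver minus virgin lung was -1.99 on the same set.

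Hspb1 read 8.88, 8.44 and 8.67 in virgin liver and 6.37, 6.17 and 6.24 in pregnant liver on its representative set. The means were 8.67 ± 0.22 and 6.26 ± 0.10 (SD, n = 3), 5.31-fold lower in pregnancy (log2 -2.41). The other set, 1425964_x_at, gave 8.45, 8.20 and 8.23 against 5.76, 6.03 and 5.57, a difference of -2.51. Both sets thus gave similar sizes, although the names of both carry suffixes for probes that also match other sequences or transcripts. Hspb1 was the only 1 of the 8 with a lower level in virgin liver than in virgin lung, with a difference of -2.66. In lung its values were 11.61, 11.27 and 11.11 in virgin and 11.66, 11.72 and 11.43 in pregnant mice. The Hspb1 promoter is shown because it holds GAANNTTC, a pair of the inverted units that make up a heat shock element, set in capitals (chr5:135887669-135887918, plus strand, GRCm38.p6, RefSeq).

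Hspb1 promoter: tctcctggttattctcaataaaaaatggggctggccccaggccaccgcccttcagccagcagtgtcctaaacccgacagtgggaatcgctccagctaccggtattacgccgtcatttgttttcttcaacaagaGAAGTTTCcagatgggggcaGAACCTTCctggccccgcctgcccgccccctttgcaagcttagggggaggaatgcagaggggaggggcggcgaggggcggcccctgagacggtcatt

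The 2 matches begin 117 and 97 bases before the annotated start. The motif reads the same on both strands, and 6.69% of the windows of all genes hold it. Among the 8 genes it was found before Hspb1 alone.

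Bmf showed the steepest fall on 1 of 3 probe sets. The set 1454880_s_at read 7.45, 7.60 and 7.37 in virgin liver and 3.61, 3.75 and 3.93 in pregnant liver. The means were 7.47 ± 0.12 and 3.76 ± 0.16 (SD, n = 3), a measured difference of -3.71 or 13.1-fold. The pregnant values lie below 4.53, the median of all values on the arrays, where signal above background is not shown. The other sets did not follow, but they lay near 4.53 or below it in all 4 groups. The set 1422995_at had means of 4.51 and 4.15, a difference of -0.36 with overlapping pools, and 1458325_x_at had 4.82 and 4.91, a difference of 0.09. In virgin lung these sets had means of 3.90 and 4.69, where 1454880_s_at had 7.24. Whether they hold enough signal to show a fall was not tested. With suffixed sets left out, the change of Bmf was therefore -0.36, and with the mean of its sets -1.33. Both values draw on the dim sets. In lung 1454880_s_at read 7.32, 7.06 and 7.34 in virgin and 7.15, 7.29 and 7.31 in pregnant mice, near its level in virgin liver. The Bmf window at the outermost annotated start is shown with its AGGTCA half-site in capitals, to set beside that of Mfsd2a (chr2:118549687-118549936, minus strand, GRCm38.p6, RefSeq).

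Bmf promoter: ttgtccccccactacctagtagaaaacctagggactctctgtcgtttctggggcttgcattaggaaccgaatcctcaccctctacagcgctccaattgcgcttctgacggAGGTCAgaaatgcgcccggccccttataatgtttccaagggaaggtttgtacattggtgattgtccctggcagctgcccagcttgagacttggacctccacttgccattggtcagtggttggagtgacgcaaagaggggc

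The half-site begins 140 bases before the start in Bmf and 213 bases before it in Mfsd2a. Both windows also hold CCAAT, the box bound by NF-Y, read on both strands. Before Bmf the 3 CCAAT matches begin 159, 88 and 34 bases from the start, and before Mfsd2a 1 begins 54 bases from it. A CCAAT was also found before Fmo5. In all, 4 of the 11 windows of the 8 genes hold it, and 33.8% of all windows do.

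Nudt7 read 11.75, 12.09 and 11.93 in virgin liver and 9.79, 10.05 and 10.18 in pregnant liver. The means of 11.92 ± 0.17 and 10.01 ± 0.20 (SD, n = 3) differ by -1.91, or 3.77-fold. Its other bright set, 1430896_s_at, gave 10.85, 11.37 and 11.11 against 8.88, 9.12 and 9.35, a difference of -1.99. On both bright sets pool 1 was the lowest pool of each state. The dimmer sets 1427513_at and 1453685_at differed by -1.20 and -1.01, and all 4 sets had pools that did not overlap. Virgin liver lay 4.13 and pregnant liver 2.22 above virgin lung. Both annotated starts of Nudt7 follow overlapping windows that hold the same 4 copies of the GC box GGGCGG (either strand). This box is in 32.7% of all windows and was also found before Hspb1 and Fmo5.

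Slc17a2 read 10.72, 10.79 and 10.59 in virgin liver and 8.21, 8.21 and 7.80 in pregnant liver. The means were 10.70 ± 0.10 and 8.07 ± 0.24 (SD, n = 3), a difference of -2.63 or 6.18-fold. The dimmer set 1425034_at gave 6.44, 6.47 and 5.86 against 3.71, 4.36 and 3.40, a measured difference of -2.43 with all pregnant values below 4.53, and on both sets pool 3 was the lowest pool of each state. Of the 8 genes it had the widest gap between virgin liver and virgin lung, 6.01. Its lung values, 4.29, 4.97 and 4.80 in virgin and 4.67, 4.51 and 4.25 in pregnant mice, lay near the median of all values. The window before Slc17a2 is shown because it holds TTCNNNGAA, the element bound by STAT proteins, in capitals (chr13:23806743-23806940, plus strand, GRCm38.p6, RefSeq).

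Slc17a2 promoter: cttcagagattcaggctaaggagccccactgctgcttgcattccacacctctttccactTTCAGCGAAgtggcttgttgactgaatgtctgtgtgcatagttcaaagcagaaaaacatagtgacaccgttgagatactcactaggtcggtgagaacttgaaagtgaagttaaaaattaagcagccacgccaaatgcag

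The match begins 191 bases before the annotated start of the transcript used, and the printed run stops where the annotated gene begins. The motif reads the same on both strands and was in 7.02% of all windows. Before the other 7 genes these letters were not found. None of the 8 genes had the E-box CACGTG, which 6.02% of windows hold. The letters TATAAA of the TATA box, on either strand, were in 12.4% of windows. Among the 8 genes they were found before Fmo5 alone, on the opposite strand (TTTATA), beginning 195 bases before the annotated start. Whether this match acts as a TATA box was not tested.

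Fmo5 read 11.12, 11.02 and 11.04 in virgin liver and 9.66, 9.65 and 9.78 in pregnant liver. The means of 11.06 ± 0.05 and 9.70 ± 0.07 (SD, n = 3) differ by -1.37, or 2.58-fold. The spread between pools was the smallest of the 8 genes in virgin liver. The set 1421709_a_at gave 9.19, 9.08 and 8.98 against 7.34, 7.37 and 7.42, a larger difference of -1.70. The third set, 1440899_at, stayed below 4.53 on all arrays, with a difference of -0.64. With suffixed sets left out this dim set stands for the gene.

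Ntrk2 was the only 1 of the 8 called in lung. Its representative set read 8.30, 8.53 and 8.59 in virgin liver and 6.63, 6.76 and 6.71 in pregnant liver, with means of 8.47 ± 0.16 and 6.70 ± 0.07 (SD, n = 3). The liver difference was -1.77, or 3.41-fold lower in pregnancy. In lung it read 6.72, 6.72 and 6.74 in virgin and 7.46, 7.39 and 7.26 in pregnant mice, so every pregnant pool lay above every virgin one. The lung means of 6.73 ± 0.01 and 7.37 ± 0.11 (SD, n = 3) differ by 0.65 ± 0.10 (SE), 1.57-fold higher in pregnancy (limma adjusted p = 0.0098). Without virgin lung pool 2 the adjusted p was 0.0592, and it was 0.19 with the mean of all 8 Ntrk2 sets, where the lung change was 0.23. Virgin lung and pregnant liver were alike on this set, with a difference between the means of -0.02 and overlapping pools, and pregnant lung lay between them and virgin liver.

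Of the 8 Ntrk2 probe sets 2 carried both changes. The set 1435196_at read 5.05, 4.73 and 5.10 in virgin and 6.22, 6.0 and 6.23 in pregnant lung. Its lung change was 1.19 ± 0.14 (SE, limma adjusted p = 0.00158 over all 45037 probe sets), against 0.65 ± 0.10 (adjusted p = 0.0164) for 1420838_at in the same fit. In the 6 fits that each left out 1 lung array, 1435196_at kept an adjusted p between 0.00557 and 0.0166. The set 1420838_at passed without pregnant lung pool 3 (0.0221), and its adjusted p lay between 0.054 and 0.0912 without each of the other 5 lung arrays. In liver 1435196_at read 6.59, 6.50 and 6.64 in virgin and 4.99, 5.05 and 4.58 in pregnant mice, a difference of -1.71. The other 6 sets differed by -0.25 to 0.42 in liver and by -0.04 to 0.14 in lung, and 5 of them stayed below 4.53 on all 12 arrays. The remaining set, 1437560_at, had liver means of 5.95 and 6.10 and lung means of 5.43 and 5.39. Which TrkB transcript forms each set reads was not analysed here.

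**Figure D2:**
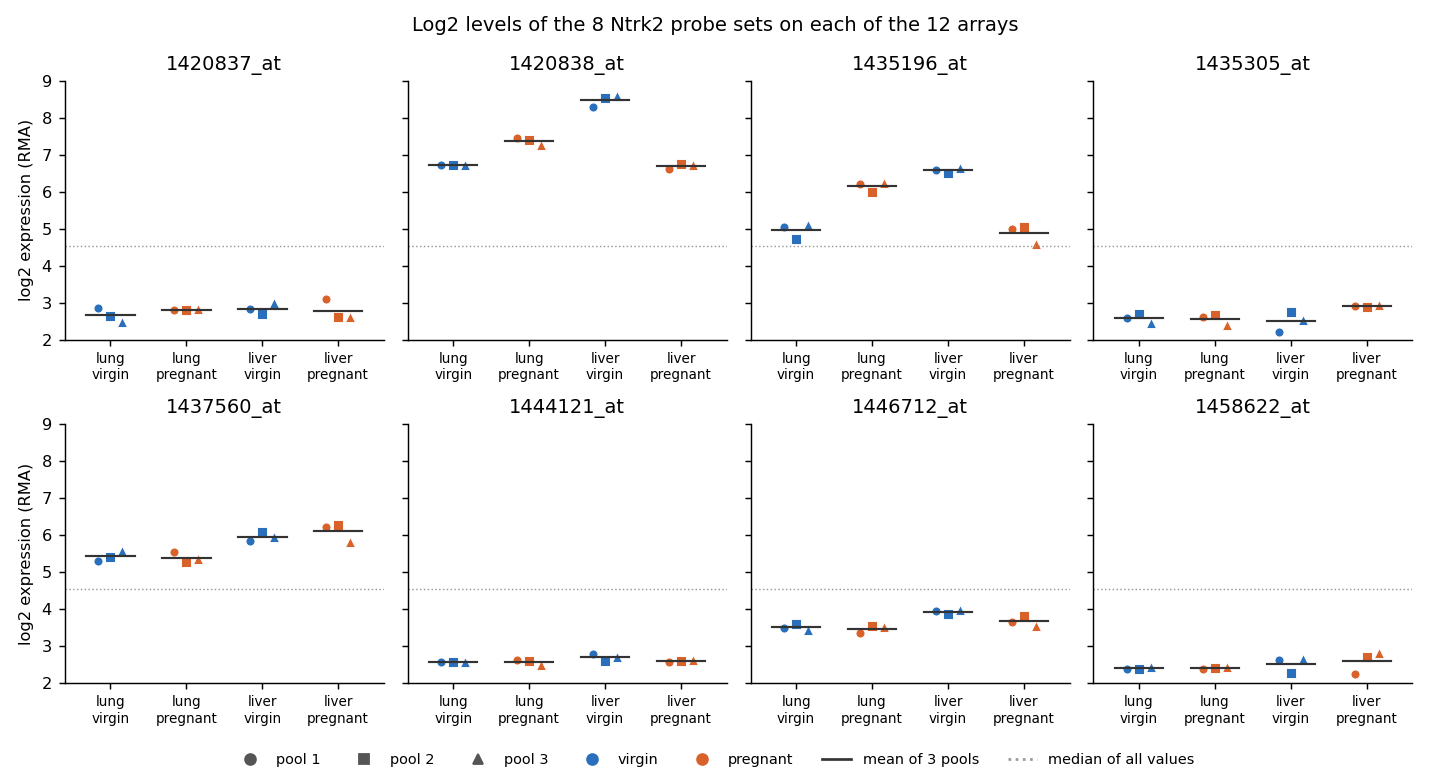
Log2 expression (y axis) of the 8 Ntrk2 probe sets in the 4 groups (x axis), 1 point for each array, bars for the mean of 3 pools and a dotted line at 4.53, the median of all values. On 1420838_at and 1435196_at the pregnant points lie above the virgin points in lung and below them in liver, and most other sets lie below the dotted line.

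The rule that chose the genes names the liver change and not the lung values, so the comparison of pregnant with virgin lung was tested. The choice was made with earlier results of these data known, so the lung p-values may not be fully independent of it. Of the 8 genes 1 rose, 0 fell and 7 did not pass by limma (Benjamini-Hochberg adjusted p under 0.05), where 0.594% of all genes tested were called, 0.258% higher and 0.335% lower. At an unadjusted p under 0.05 the count was 2, Ntrk2 and Fmo5, where 9.87% of all genes had such a p. The median lung change of the 8 was -0.05, against -0.01 over all genes. Fmo5 had lung values of 7.21, 7.04 and 6.93 in virgin and 6.85, 6.84 and 6.89 in pregnant mice, a difference of -0.20 ± 0.09 (SE, adjusted p = 0.478). Hspb1 differed by 0.28 ± 0.14 (adjusted p = 0.569) and Slc17a2 by -0.21 ± 0.17 (adjusted p = 0.794). The differences of Nudt7, Ddah1, Mfsd2a and Bmf were -0.11, -0.10, 0.08 and 0.01, with SE from 0.11 to 0.23 and adjusted p from 0.882 to 0.992. The pools of the 2 states did not overlap for 3 of the 8, Ntrk2 upwards and Ddah1 and Fmo5 downwards, where 18.4% of all genes had such pools, 8.06% higher and 10.4% lower. At the level of probe sets 2 of 28 were called, both of Ntrk2, where 0.213% of all probe sets were.

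Across the 28 probe sets, 21 had pregnant liver pools all below the virgin ones and 1 had them all above (1435305_at of Ntrk2, by 0.42 and below 4.53 throughout), where 11.8% of all probe sets were lower and 10.8% higher in this way. The 6 remaining sets overlapped, 2 of Bmf and 4 of Ntrk2. The genes were chosen by their liver fall, so these liver counts are a description, and sets of 1 gene are not independent. Mfsd2a, Ddah1, Hspb1, Nudt7, Slc17a2 and Fmo5 were lower on every set. In lung 4 sets had pregnant pools all above and 3 all below the virgin ones, where 7.24% and 8.32% of all probe sets did. Within a gene the bright sets showed the larger differences for Ddah1, Nudt7 and Bmf, while for Fmo5 the set 1421709_a_at, below the representative set in level, differed more.

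**Figure D3:**
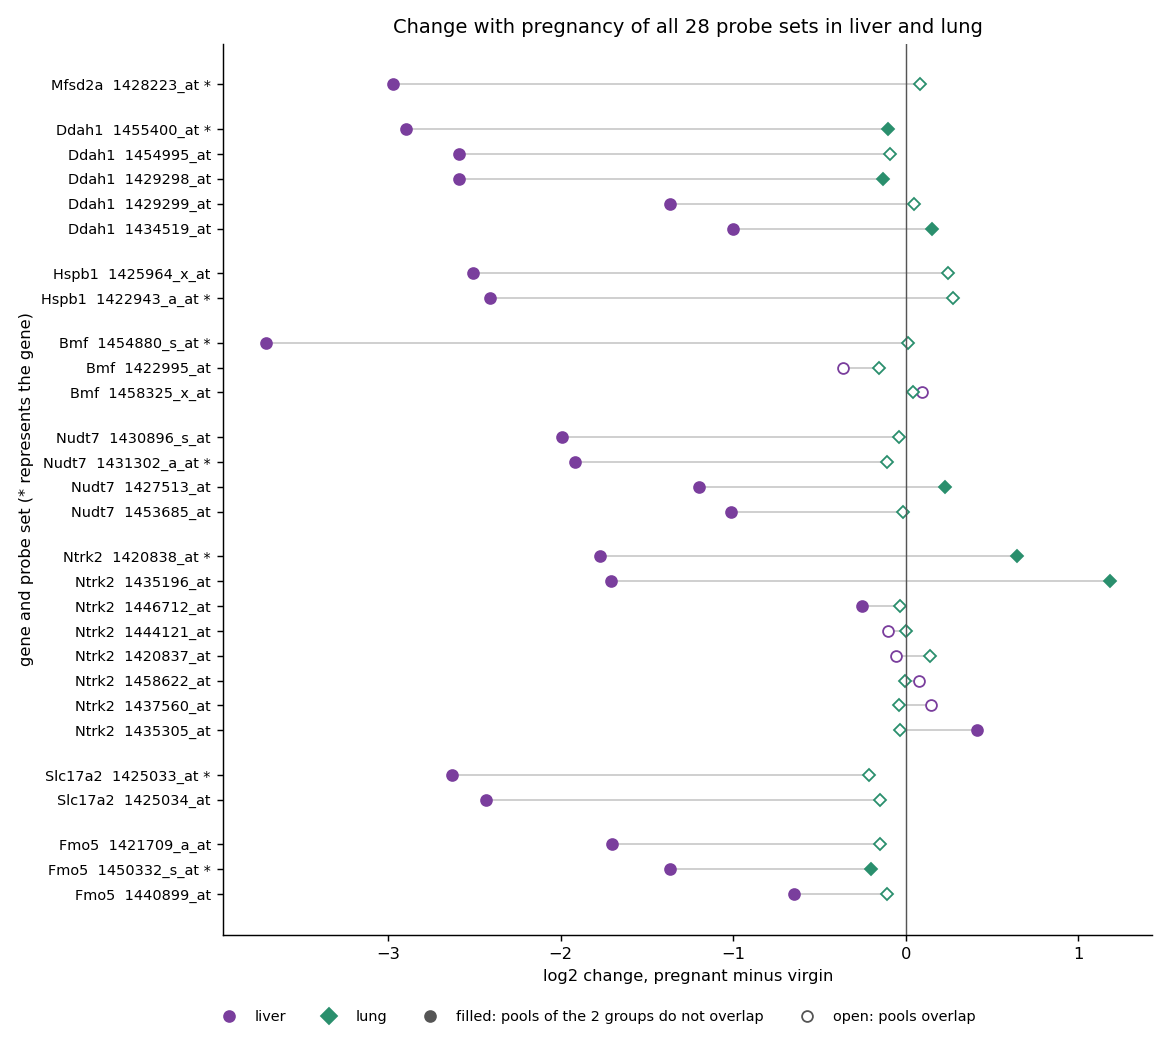
Log2 change, pregnant minus virgin (x axis), of each of the 28 probe sets (y axis) in liver (circles) and lung (diamonds), filled where the pools of the 2 states do not overlap. Most circles lie between -1 and -4, the lung diamonds lie near 0, and the 2 Ntrk2 sets with the largest liver differences, 1420838_at and 1435196_at, are the only sets with a lung change above 0.5.

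Arrays of pool 3 stood apart in liver. For the poly-A control RNA, which is spiked into the sample ahead of labelling, the mean signal was 4.91 (log2) on virgin liver pool 3 and 5.46 on pregnant liver pool 3, against 11.76 to 12.27 on the other 10 arrays. Within pools 1 and 2 Mfsd2a differed by -2.64 and within pool 3 by -3.64, while Ddah1 differed by -3.08 and -2.52 and Bmf by -3.85 and -3.44. Of the other 5 genes Slc17a2 had the widest gap, -2.54 against -2.80. The ratio passed 1.5 on the dimmer Ddah1 sets, 1434519_at (-0.71 and -1.60) and 1429299_at (-1.04 and -2.03). On sets of Bmf and Ntrk2 with small liver differences it also passed 1.5 or the sign turned. Examples are the Ntrk2 sets 1446712_at (-0.17 and -0.42) and 1437560_at (0.29 and -0.14). The hybridisation controls, added after labelling, lay at 9.13 to 9.24 in virgin and at 9.34 to 9.65 in pregnant liver; their part in the liver differences was not tested. Hepatocyte markers had array medians of 13.57 to 13.62 in virgin and 13.72 to 13.78 in pregnant liver, against 3.88 to 4.23 in lung, and lung epithelium markers 12.32 to 12.61 in lung against 4.43 to 4.56 in liver.

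Markers of the cells that liver holds were counted beside the fallers. Of 19 hepatocyte markers 3 rose and 0 fell in pregnant liver (adjusted p under 0.05), with a median change of 0.13, F2 (prothrombin) at 0.44 and Vtn (vitronectin) at 0.40. The calls of F2 and Vtn were lost in each of the 6 fits that left out 1 liver array, with adjusted p up to 0.117 and 0.0857. Of all genes 13.6% were called, 6.02% higher and 7.62% lower. Of 13 periportal hepatocyte markers 6 fell and 1 rose, with a median of -0.29, and their array medians went from 11.06 to 11.17 in virgin to 10.42 to 10.54 in pregnant liver. Etnppl changed by -1.88 and Aldh1b1 by 1.60. Of 15 pericentral hepatocyte markers 2 fell, Cyp27a1 (-0.89) and Lect2 (-0.82), and 1 rose, where Lect2 passed in 2 of the 6 fits without 1 array. Their array medians were 11.04 to 11.17 in virgin and 10.18 to 10.44 in pregnant liver. Of 10 cholangiocyte markers Onecut1 (0.66) and Krt18 (0.45) rose, each in 5 of the 6 fits without 1 array, and the median was -0.17. The other 8 did not pass, with changes from -0.31 (Krt8) to 0.10 (Cldn4). In virgin liver Krt18 and Krt8 read 10.81 and 10.78, and Krt19 and Krt7 5.37 and 4.99. Whether all genes of this list mark the same cells was not tested. The Onecut1 difference was 0.39 in pools 1 and 2 but 1.2 in pool 3, and its adjusted p without both pools 3 was 0.108. Onecut1 was lost without pregnant liver pool 1 (adjusted p = 0.0517) and Krt18 without virgin liver pool 2 (adjusted p = 0.0615). Of 15 stellate cell markers the retinol esterifying enzyme gene Lrat fell (-1.45), and of 13 endothelial markers the receptor gene Kdr (-0.30), which passed in 1 of the 6 fits without 1 array. Of 14 Kupffer cell markers the receptor gene Timd4 fell (-0.64), and the list had the lowest median of the marker lists, -0.31. The medians of the stellate cell, endothelial and pericentral lists were -0.05, -0.21 and -0.22. The erythroid list had 2 up, Tfrc (1.51) and Alas2 (1.16), and 1 down of 10, with a median of 0.07. The exocrine pancreas list had 4 up, 2 down and 7 not called of 13, with a median of 0.02. Its lipase gene Pnliprp1 rose by 3.42 and its elastase gene Cela3b by 2.73. The 2 that fell were the elastase genes Cela1 (-1.35) and Cela2a (-0.87), named after their values were seen. The part of these markers in the liver differences of the 8 genes was not tested.

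Genes of the same families and pathways were counted from 8 lists without the 8 genes themselves. Of 164 measured genes 16 rose, 24 fell and 124 did not pass in pregnant liver, so 24.4% were called against 13.6% of all genes, and their median change was -0.02. In pregnant lung 0 of the 164 were called by limma and 18 had an unadjusted p under 0.05, as 1795 of all 18193 genes did (9.87%). Calls named below passed in each of the 6 fits that left out 1 liver array, which not all of the counted calls did.

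**Figure D4:**
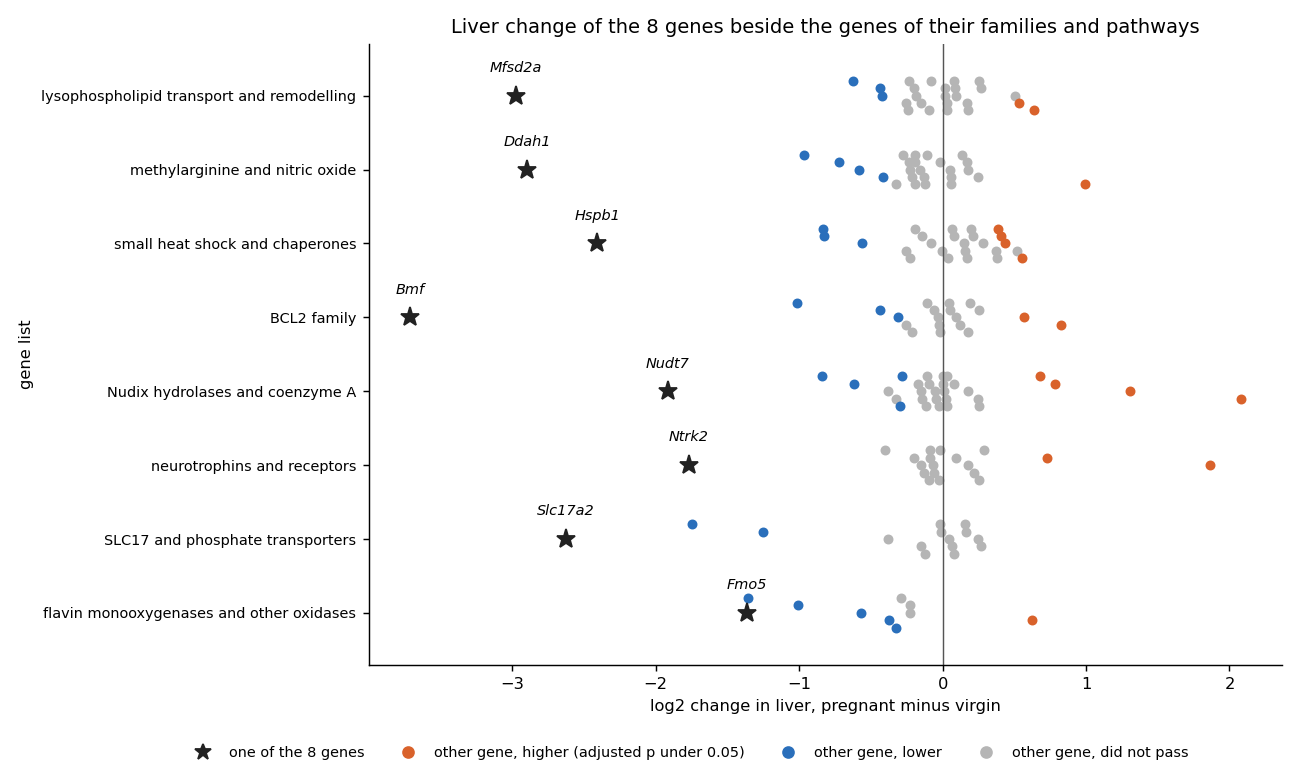
Log2 change in liver, pregnant minus virgin (x axis), of the measured genes of 8 lists (y axis), with orange points for genes that rose, blue for genes that fell, grey for genes that did not pass and a star for the gene of the 8 that belongs to the list. Each star lies to the left of the points of its list, Fmo5 at -1.37 just beside Aox3 at -1.36.

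Next to Mfsd2a, the 25 genes of lysophospholipid transport and remodelling had 2 up and 3 down. Mfsd6, of the same transporter superfamily, rose by 0.64 ± 0.08 (log2, SE, limma adjusted p = 0.000133), the phospholipase gene Pla2g6 changed by -0.62 ± 0.12 (adjusted p = 0.00251), and Gpcpd1, which cleaves glycerophosphocholine, rose by 0.53 ± 0.10. With the mean of all probe sets the adjusted p was 0.0558 for Mfsd6 and 0.33 for Gpcpd1, and with suffixed sets left out it was 0.78 for Pla2g6, whose call was lost under 2 of 10 settings. Next to Ddah1, the 25 genes of methylarginine and nitric oxide had 1 up and 4 down. The amino acid transporter gene Slc7a7 rose by 0.99 ± 0.15 (0.77 within pools 1 and 2, 1.44 within pool 3). Gch1, which starts the synthesis of the nitric oxide synthase cofactor, changed by -0.97 ± 0.13 (-1.13 and -0.63), and the arginine transporter gene Slc7a2 by -0.72 ± 0.12 (-0.58 and -1.01). Ddah2, the other gene of the enzyme family, differed by -0.23 and did not pass (adjusted p = 0.126), and was named after its value was seen.

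Next to Hspb1, the 25 measured chaperone genes had 4 up and 3 down, with a median of 0.15. The largest called changes were all downwards: the small heat shock gene Hspb6 by -0.83 ± 0.16, the Hsp110-type gene Hspa4l by -0.83 ± 0.12 and the Hsp70 gene Hspa2 by -0.56 ± 0.10 (log2, SE, limma adjusted p = 0.00277, 0.000436 and 0.00237). Next to Bmf, the 19 measured BCL2 family genes had 2 up and 3 down. Bik, another BH3-only gene, changed by -1.01 ± 0.15, whereas the BH3-only gene Bcl2l11 (Bim) rose by 0.82 ± 0.11 and the pro-survival gene Bcl2l1 by 0.56 ± 0.09. Next to Nudt7, the 29 measured Nudix and coenzyme A genes had 4 up and 4 down. Vnn1 and Vnn3, of the pantetheinase family, rose by 2.08 ± 0.17 and 1.31 ± 0.08 (adjusted p = 2.35e-06 and 1.57e-07), and Nudt16, an RNA decapping enzyme, changed by -0.84 ± 0.10. Nudt8 and Nudt19, which also cleave coenzyme A, differed by 0.01 and -0.10 and did not pass (adjusted p = 0.98 and 0.684), and were named after their values were seen.

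Next to Ntrk2, the 18 measured neurotrophin genes had 2 up and 0 down. Sorcs3, a sortilin-type receptor gene, rose by 1.87 ± 0.16 (log2, SE, limma adjusted p = 2.78e-06), from 5.48 to 7.35. Furin, a protease that matures neurotrophins among many proteins, rose by 0.73 ± 0.12 (0.91 within pools 1 and 2, 0.37 within pool 3). Bdnf, the ligand of TrkB, had liver means of 4.83 and 4.68 and lung means of 7.24 and 7.31, with adjusted p of 0.396 and 0.916, and was named after its values were seen. In lung, Sorcs2 was the list's gene with the smallest p, at -0.42 (adjusted p = 0.0667, not called).

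Next to Slc17a2, the 14 measured SLC17 and phosphate transporters had 0 up and 2 down, both close relatives in the same family. Slc17a1 changed by -1.74 ± 0.16 (log2, SE, limma adjusted p = 6.15e-06), from 6.93 to 5.18, and Slc17a3 by -1.25 ± 0.23 (adjusted p = 0.00229), from 9.84 to 8.58. The other 12 did not pass. Next to Fmo5, a mixed list of flavin monooxygenases, other oxidases, cytochrome b5 and a cytochrome b5 reductase was measured. Of its 9 genes 1 rose and 5 fell, or 66.7% called. The aldehyde oxidase genes Aox3 and Aox1 changed by -1.36 ± 0.11 and -1.01 ± 0.11, and Cyb5r3, a cytochrome b5 reductase, rose by 0.63 ± 0.12 (adjusted p = 0.379 with suffixed sets left out). Fmo1, Fmo2 and Fmo4, the other members of the monooxygenase family measured, were the 3 that did not pass, with differences of -0.23, -0.23 and -0.29, and were named after their values were seen.

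In lung the smallest p of the other lists belonged to Prmt8 (0.80, limma adjusted p = 0.0749), Hsph1 (0.70, adjusted p = 0.101), Maob (-0.35, 0.147), Pla2g12b (0.50, 0.239), Vnn3 (0.24, 0.28), Slc37a4 (-0.32, 0.392) and Mcl1 (0.24, 0.402), and none of these changes passed.

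The genes whose levels followed each of the 8 most closely were sought over the 12 arrays among 8688 other genes with a range of at least 1. The 12 arrays fall into 4 groups, so Pearson's r mainly compares group means, and it is given as a description. Spearman's rho over the same arrays ran from 0.448 to 0.965 and was lowest for Bmf with Daam1 (0.448) and Mfsd2a with Fasn (0.678). Mfsd2a was followed by the fatty acid synthase gene Fasn (r = 0.969, liver change -1.54) and by Nfyb, a subunit of the factor that binds CCAAT (r = 0.964, -0.89). Hspb1 was followed by Hspa4l (r = 0.993), and Bmf by Daam1 (r = 0.972) and Gsta4 (r = 0.963). The steroid dehydrogenase gene Hsd3b2 (liver change -2.12) was the closest to both Nudt7 (r = 0.997) and Slc17a2 (r = 0.996), which followed each other with r = 0.992. Fmo5 was followed by Blvrb (r = 0.998) and by Idi1 of the isoprenoid pathway (r = 0.997), Slc17a2 also by the lanosterol synthase gene Lss (r = 0.995), Nudt7 by Fuom (r = 0.996), and Hspb1 also by Anp32a (r = 0.993). Ddah1 was followed by Dixdc1 (r = 0.973) and Car8 (r = 0.969). For Ntrk2, the closest were Mafg (r = 0.959; 0.30 in lung and -1.13 in liver) and Abcc3 (r = 0.944; 0.08 and -3.18).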

How the data were processed

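Expression was measured on 12 one-colour Affymetrix arrays. The deposited values are log2 values that the authors made with RMA from the affy package, per the submitters' processing notes, which give no versions; which arrays were normalized together is not given in the sources used here. Control probe sets (64) did not enter. Of 45037 others 34945 had a single platform symbol. The probe set with the highest mean represented each of 18193 genes. Limma 3.58.1 in R 4.3.3 fitted 4 group means over the 12 arrays, without a filter, and calls were made at 0.05 after Benjamini-Hochberg adjustment. Member probe sets came from the same fit on all probe sets. Of these steps, the limma fit of the lung contrast was tested on simulated data with seeded changes.

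The members, lists and motifs were chosen with earlier results of these data known. Named were all members and probe sets, up to 3 called genes of each related list with the largest liver change (in lung the 1 with the smallest p), up to 2 called genes of each marker list, 2 closest genes for each member and rank neighbours. Genes named outside this rule are said to be. Alternatives are in the closing section. The pool numbers were not taken to pair the pools. Same-numbered pools of a tissue correlated in their deviations at -0.11 to 0.11, which with 3 pools in a group cannot exclude pairing. In liver both pools numbered 3 lacked the poly-A signal, so there the number goes with a difference between arrays.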

Additional observations from a re-analysis of the deposited data

Results flagged for a closer look

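On 4 probe sets the pools of the 2 states did not overlap in either tissue and moved in opposite directions. The difference between the tissues was not tested, since the liver change chose the genes. Ntrk2 changed on 1420838_at by 0.65 in lung and by -1.77 in liver, and on 1435196_at by 1.19 and -1.71. The differences of Nudt7 on 1427513_at were 0.23 in lung and -1.20 in liver, and those of Ddah1 on 1434519_at were 0.15 and -1.0. The lung values of the Nudt7 set lie below 4.53, the median of all values. The lung differences of these Nudt7 and Ddah1 sets did not pass (limma adjusted p = 0.854 and 0.968), and the other sets of both genes had lung differences of -0.13 to 0.05.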

How the results depend on the processing

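Ntrk2 was the 1 member called in lung, and 0 members were called when a gene's sets were averaged and without virgin lung pool 2 (range 0 to 1 when each lung array was left out). Its adjusted p over the 14 alternatives ran from 0.00314 to 0.19, with 12 calls. Without each lung array in turn 1 to 2 member probe sets, 26 to 105 genes and 0 to 2 related genes were called. Leaving out virgin pool 2 gave the 26, virgin pool 3 gave 36, and pregnant pools 1 and 2 gave 50 each. With the pool number as a replicate block 70 lung genes and 1 related gene were called; no member call changed under it. A variance trend with robust moderation called 207 lung genes and 3 related genes. The filter on dim sets and the mean of all sets each called 1 related gene in lung. In liver 1557 genes were called with the 6 liver arrays alone, and 1879 to 2541 without each array. Related genes called in liver ranged from 31 to 48 over the 16 alternatives. A fit without both liver pools 3, added after the spike-in values were known, called 2146 liver genes and 35 related ones. Lung changes that did not pass turned sign for Bmf (-0.034 with the mean of sets, -0.16 without suffixed sets, -0.078 to 0.062 without each array), Mfsd2a (-0.087 to 0.26 without each array) and Nudt7 (0.016 with the mean of sets). Liver changes of all 8 genes kept their sign. The smallest were -0.36 (Bmf) and -0.64 (Fmo5) without suffixed sets, -1.01 (Nudt7) likewise, and -0.41 (Ntrk2) and -2.09 (Ddah1) with the mean of sets. Without suffixed sets a dim set stands for Bmf and for Fmo5. Hspb1 has no unsuffixed set. Where not stated otherwise, the cause was not tested.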
